A study of Mus musculus and Homo sapiens with 32 samples.

Results

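The proteins of the mitochondrial ribosome were followed at the RNA level in mouse kidneys of an obstruction experiment. The genes were taken as all protein-coding genes of the experiment's count table whose symbol begins with Mrpl or Mrps and a digit, which gave 78 of 57180 listed genes. The symbols assign 49 of them to the large and 29 to the small subunit, and 77 of the 78 descriptions in the table name a mitochondrial ribosomal protein. The study asked how loss of Pcmt1, the enzyme that repairs isoaspartyl residues in proteins, bears on renal fibrosis. Bulk mRNA libraries were made from kidneys of Pcmt1 tKO and Pcmt1 fl/fl mice, where fl/fl marks a floxed allele. The labels give neither the meaning of tKO nor the Cre line, age or sex. Each genotype had 3 libraries after unilateral ureteral obstruction (UUO) and LY2109761, which blocks the TGF-beta receptor kinases, 3 after UUO with DMSO and 3 after sham surgery with DMSO. UUO blocks the outflow of urine from one kidney and is a widely used model of tubulointerstitial fibrosis. The series also holds human HK-2 cells, WT and PCMT1 KO (3 libraries each), and whole kidneys of WT and Pcmt1 KO mice (4 each). These are described only briefly, at the end of the Results. Whether the libraries of a group came from separate animals is not stated, and p-values therefore cover the variation among these libraries alone, part or all of it possibly technical.

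The mitochondrial ribosome makes the proteins encoded by mitochondrial DNA, which are core subunits of the respiratory chain and the ATP synthase. Its ribosomal RNAs come from mitochondrial DNA, while all of its proteins are encoded in the nucleus, translated in the cytosol and imported. Many of them have bacterial counterparts and others occur only in mitochondria. Proximal tubule cells, which form most of the kidney cortex, are rich in mitochondria. Symbols do not always follow the structure: the products of Mrps18a and Mrps30 sit in the large subunit, and the product of Mrps36 is known as a component of the oxoglutarate dehydrogenase complex.

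Library totals lay between 13015669 and 19565376 counts, and all 78 genes passed the filter on low counts that left 19256 genes for testing. The smallest count of any of the 78 in a library was 24. Counts on mitochondrially encoded genes differed widely: they made up 12.3% to 18.8% of a library in tKO UUO with LY2109761, 9.88% to 16.2% in tKO UUO, 33.7%, 49.7% and 69.5% in tKO sham, 12.1% to 16.4% in fl/fl UUO with LY2109761, 7.43% to 7.67% in fl/fl UUO and 30.8% to 35.5% in fl/fl sham. Pcmt1, the targeted gene, stood at 49.3, 22.7 and 24.3 CPM in tKO sham kidneys, against 48.9, 43.4 and 42.8 CPM in fl/fl sham kidneys. The library labelled tKO sham replicate 1 thus lay above all fl/fl sham libraries in Pcmt1. For comparisons with tKO sham kidneys, the main counts and medians over the 78 genes and some single genes are also given without it. Genes shared between comparisons, other gene lists and cell type markers are given only with it. CPM here are counts in units of 1e+06 reads of the TMM-scaled library size, and log2 differences are given with their standard error. Between tKO and fl/fl kidneys, Pcmt1 differed by -0.48 ± 0.23 in sham (edgeR adjusted p = 0.182). The difference was -0.61 ± 0.23 in UUO (edgeR adjusted p = 0.0818) and -0.29 ± 0.23 in UUO with LY2109761 (edgeR adjusted p = 0.535). No difference between genotypes in Pcmt1 passed the threshold, so its RNA level does not verify the genotype labels in any of these treatments. In bulk kidney RNA, fewer cells of a type and less RNA per cell cannot be told apart.

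Levels per length spanned 38.4-fold between the highest and the lowest of the 78 genes. The quantity was the deposited FPKM (read fragments scaled to a length for each gene and to library size) divided by the TMM factor and averaged over the 18 libraries. The large subunit was led by Mrpl34 at 66.3, Mrpl12 at 48.4, Mrpl54 at 45.9 and Mrpl24 at 39.6, and the small subunit by Mrps6 at 46.2, Mrps7 at 36.1, Mrps28 at 28.6 and Mrps21 at 28.4. At the low end, Mrpl15 stood at 1.73 and Mrpl48 at 2.10 in the large subunit, and Mrps17 at 2.35 and Mrps10 at 2.41 in the small one. The length behind these values was the sum of all annotated exons: it was 607 bases for Mrpl34, the shortest of the 78, and 13836 bases for Mrps17, the longest, and all of that length divides the counts of a gene. The median level was 11.9 over the large subunit genes and 7.77 over the small subunit genes.

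The summed level of the large subunit genes was 1.93 to 2.35 times that of the small subunit genes in single libraries. In fl/fl kidneys this ratio was 2.22 to 2.29 after UUO, above the 2.09 to 2.17 of sham. With LY2109761 it was 2.15 to 2.24 and overlapped sham. In tKO kidneys it was 2.09 to 2.32 after UUO and 2.28 to 2.35 with LY2109761. The tKO sham values were 2.10, 2.04 and 1.93, and only the first of them overlapped tKO UUO. These differences were not tested. The ratio averaged 2.31 ± 0.0395 in tKO UUO with LY2109761, 2.21 ± 0.115 in tKO UUO, 2.02 ± 0.0869 in tKO sham, 2.19 ± 0.0460 in fl/fl UUO with LY2109761, 2.26 ± 0.0352 in fl/fl UUO and 2.12 ± 0.0429 in fl/fl sham (SD, n = 3 each). As a share of all counts outside mitochondrially encoded genes, the 78 genes made up 0.386% ± 0.00859 in tKO UUO and 0.385% ± 0.0564 in tKO sham kidneys, against 0.382% ± 0.0313 in fl/fl UUO and 0.457% ± 0.0195 in fl/fl sham kidneys (SD, n = 3 each). With LY2109761 after UUO the share was 0.359% ± 0.0220 in tKO and 0.420% ± 0.0136 in fl/fl kidneys (SD, n = 3 each). In fl/fl kidneys the shares after UUO lay below all sham values, whereas in tKO kidneys the UUO values lay inside the range of the sham values. Without replicate 1 the tKO sham shares were 0.381% and 0.331%, and the UUO values of 0.376% to 0.393% then overlapped them at the low end.

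**Figure D1:**
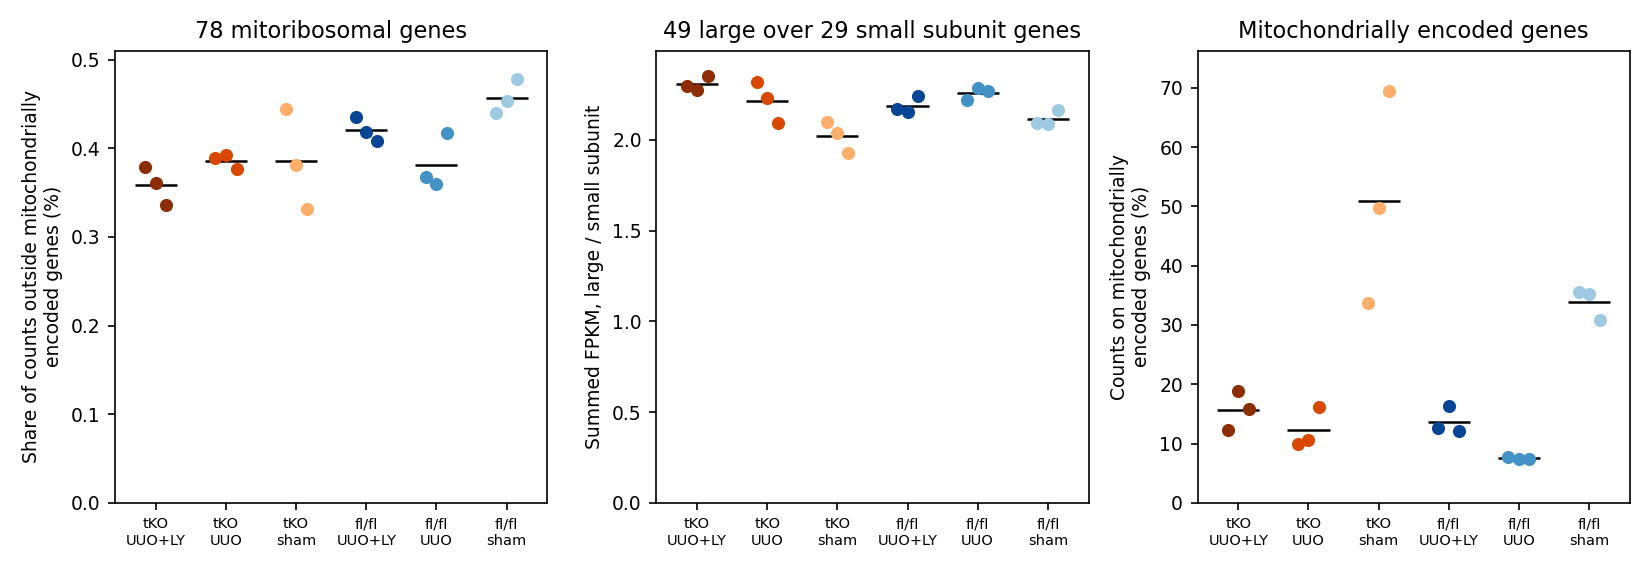
Each point is 1 library and each bar the mean of 3 libraries, for the 6 groups. The panels show the share of counts outside mitochondrially encoded genes taken by the 78 genes (%), the ratio of summed TMM-scaled FPKM of large to small subunit genes, and the share of all counts on mitochondrially encoded genes (%), which reached 69.5% in 1 tKO sham library.

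Under TMM scaling, RNAs of both subunits were lower after obstruction of fl/fl kidneys. After UUO 40 of the 78 genes fell and 0 rose against sham (edgeR quasi-likelihood test, adjusted p below 0.05). These were 25 of the 49 large subunit genes and 15 of the 29 small subunit genes. Among all genes tested, 39.6% passed the same threshold, 18.7% as lower and 20.9% as higher. The median log2 difference was -0.49 over the 78 genes, -0.45 over the large and -0.52 over the small subunit, against 0.02 over all genes, and 73 of the 78 lay below 0. When libraries were scaled by their totals, the median of the 78 genes was 0.25 and that of all genes 0.76, with 10 genes higher and 0 lower. The sign of the change thus depends on the scaling. Scaling shifts all genes of a library alike, so the gap to all genes is no separate check. In 57 of the 78 all UUO libraries lay below all sham libraries, and in 1 they lay above. Among all genes, 26.0% had all UUO libraries below and 28.8% above.

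Mrps34, a mitochondria-specific small subunit protein, had 28.7, 24.2 and 39.1 CPM in fl/fl UUO kidneys, against 75.9, 72.3 and 65.5 CPM in fl/fl sham kidneys. It fell by 1.22 ± 0.20 on the log2 scale (edgeR adjusted p = 0.0001756), the largest decrease among the 40 genes. Mrpl16, the counterpart of a conserved bacterial protein near the peptidyl transferase centre, had 27.4, 21.3 and 30.7 CPM in fl/fl UUO kidneys, against 56.6, 53.5 and 57.4 CPM in fl/fl sham kidneys (log2 difference -1.08 ± 0.15, edgeR adjusted p = 3.4e-05). Mrps7, the counterpart of a bacterial protein of the small subunit head, had 70.8, 62.2 and 73.7 CPM in fl/fl UUO kidneys, against 139.3, 145.6 and 138.4 CPM in fl/fl sham kidneys (-1.03 ± 0.12, edgeR adjusted p = 1.014e-05). For these 3 genes the libraries of UUO and sham kidneys did not overlap.

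Mrps36 fell by 1.07 ± 0.20 on the log2 scale, with 8.60, 7.13 and 13.2 CPM in fl/fl UUO kidneys, against 18.5, 19.2 and 23.1 CPM in fl/fl sham kidneys. Mrpl14, which in the assembling large subunit contacts the silencing factor Malsu1, fell by 1.01 ± 0.31, with 15.1, 16.5 and 20.4 CPM in fl/fl UUO kidneys, against 29.1, 31.1 and 44.3 CPM in fl/fl sham kidneys. Its adjusted p rose above 0.05 without fl/fl UUO replicate 1, without fl/fl UUO replicate 2 or without fl/fl sham replicate 3. Mrpl12, a stalk protein that recruits translation factors and also binds the mitochondrial RNA polymerase, fell by 0.94 ± 0.27, with 91.3, 75.4 and 108.3 CPM in fl/fl UUO kidneys, against 159.4, 177.1 and 190.7 CPM in fl/fl sham kidneys. Its call was lost without fl/fl UUO replicate 2. At the other end stood Mrpl33, the counterpart of a small bacterial protein, with 57.6, 56.2 and 71.4 CPM in fl/fl UUO kidneys, against 46.2, 52.4 and 46.4 CPM in fl/fl sham kidneys. It was the single gene whose UUO libraries all lay above sham, and its difference of 0.35 ± 0.14 missed the threshold (edgeR adjusted p = 0.0502).

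Genes chosen for their role rather than their change gave mixed results. Mrpl10, the partner of Mrpl12 in the stalk, fell by 0.40 ± 0.13 on the log2 scale in fl/fl UUO kidneys, and Mrps27, an RNA-binding protein of the small subunit, fell by 0.55 ± 0.16. Mrpl58, which can release stalled peptides as a peptidyl-tRNA hydrolase, fell by 0.54 ± 0.18. Mrps12, the counterpart of the bacterial decoding-site protein, differed by -0.58 ± 0.34 and did not pass the threshold (edgeR adjusted p = 0.199). Among the 3 paralogous Mrps18 genes, Mrps18a differed by -0.37 ± 0.28, Mrps18b by 0.11 ± 0.15 and Mrps18c by -0.32 ± 0.20, and Mrps30 differed by 0.02 ± 0.13, with no call for any of them. A split by evolutionary origin, drawn up after the values had been seen, gave 22 of 47 genes with a bacterial counterpart and 18 of 31 mitochondria-specific genes as lower in fl/fl UUO kidneys, with medians of -0.52 and -0.46.

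In tKO kidneys fewer of the genes passed the threshold. After UUO 16 of the 78 (20.5%) fell and 3 (3.85%) rose against tKO sham kidneys, where 41.0% of all genes tested passed, 19.4% as lower and 21.6% as higher. The share that fell was thus near that of all genes. The genes that fell were 8 of 49 in the large and 8 of 29 in the small subunit, and the 3 that rose all belonged to the large subunit. The median log2 difference was -0.19 over the 78 genes, against 0.02 over all genes, and 0.85 against 1.06 when libraries were scaled by their totals. Without tKO sham replicate 1, 11 genes fell and 6 rose, and the median was -0.06, with the share of all genes past the threshold not worked out for that refit. All UUO libraries lay below all sham libraries in 23 of the 78 genes and above them in 4, against 22.8% and 26.0% of all genes. Without tKO sham replicate 1 these counts were 24 and 15, against 28.3% and 32.5% of all genes. Of the genes that fell, 13 also fell in fl/fl kidneys, which is 81.25% of the 16 in tKO and 32.5% of the 40 in fl/fl kidneys. Over all genes tested, those that fell in both made up 69.8% of the genes lower in tKO and 72.4% of those lower in fl/fl kidneys. The 13 included Mrpl12, Mrpl16, Mrps7, Mrps34 and Mrps36.

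Mrps23, a mitochondria-specific small subunit protein, had 6.51, 19.8 and 9.29 CPM in tKO UUO kidneys, against 41.1, 30.8 and 25.3 CPM in tKO sham kidneys. It fell by 1.46 ± 0.33 on the log2 scale (edgeR adjusted p = 0.00256), and the libraries did not overlap. Its spread was wide elsewhere too: in fl/fl kidneys it stood at 19.6, 24.7 and 23.3 CPM after UUO, against 25.1, 22.3 and 43.7 CPM after sham surgery. Mrpl28, the counterpart of a conserved bacterial protein, fell by 0.91 ± 0.31, with 31.4, 17.7 and 22.8 CPM in tKO UUO kidneys, against 70.3, 37.0 and 27.3 CPM in tKO sham kidneys. These libraries overlapped, and the call was lost without tKO sham replicate 1, without tKO UUO replicate 2 or without tKO UUO replicate 3. Mrpl12 fell by 0.89 ± 0.27, Mrpl16 by 0.81 ± 0.15, Mrpl46 by 0.80 ± 0.23 and Mrps17 by 0.75 ± 0.23. Without tKO sham replicate 1 the calls of Mrpl12, Mrpl28 and Mrpl46 were lost, with differences of -0.33, -0.42 and -0.40. Scaled by library totals, the differences of Mrpl12, Mrpl16, Mrpl46 and Mrps17 were 0.0058, 0.25, 0.14 and 0.39. The call of Mrpl12 was also lost without tKO UUO replicate 3, and that of Mrps17 without tKO sham replicate 3.

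The 3 genes that rose in tKO UUO kidneys were Mrpl33, Mrpl52 and Mrpl23. Mrpl33 had 82.9, 78.5 and 70.6 CPM in tKO UUO kidneys, against 49.6, 40.3 and 35.5 CPM in tKO sham kidneys (log2 difference 0.88 ± 0.14, edgeR adjusted p = 0.0001035). Mrpl52, a mitochondria-specific protein, had 52.8, 55.1 and 42.1 CPM in tKO UUO kidneys, against 37.8, 31.2 and 24.1 CPM in tKO sham kidneys (0.68 ± 0.16, edgeR adjusted p = 0.00300). Mrpl23, the counterpart of a bacterial protein at the exit of the peptide tunnel, had 25.8, 26.5 and 26.7 CPM in tKO UUO kidneys, against 21.2, 19.8 and 22.1 CPM in tKO sham kidneys (0.32 ± 0.11, edgeR adjusted p = 0.0305). All UUO libraries lay above all sham libraries in the 3 genes, and the call of Mrpl23 was lost without any one of the 3 tKO UUO libraries or without tKO sham replicate 2.

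The test of the difference between the UUO effects in tKO and fl/fl kidneys called 0 of the 78 genes. Here 0.0415% of all genes tested passed, 0.0104% as higher and 0.0312% as lower. At an unadjusted p below 0.05 there were 16 of the 78, against 2423 of 19256 genes tested. DESeq2 called 1 of the 78, against 412 of all genes. The median difference between the effects was 0.30, and 68 of the 78 lay above 0. Over all genes tested the median was -0.02, and 9356 of 19256 lay above 0. This shift was not particular to the 78 genes. Cytosolic ribosomal protein genes had a median of 0.71, with 77 of 78 above 0. Nuclear respiratory chain genes had a median of 0.39, with 80 of 85 above 0. With 0 of the 78 called, the fewer calls in tKO kidneys are not shown to differ from fl/fl kidneys for any single gene in this fit. Without tKO sham replicate 1, 3 genes passed as higher and the median was 0.44, with the share of all genes past the threshold not worked out for that refit.

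**Figure D2:**
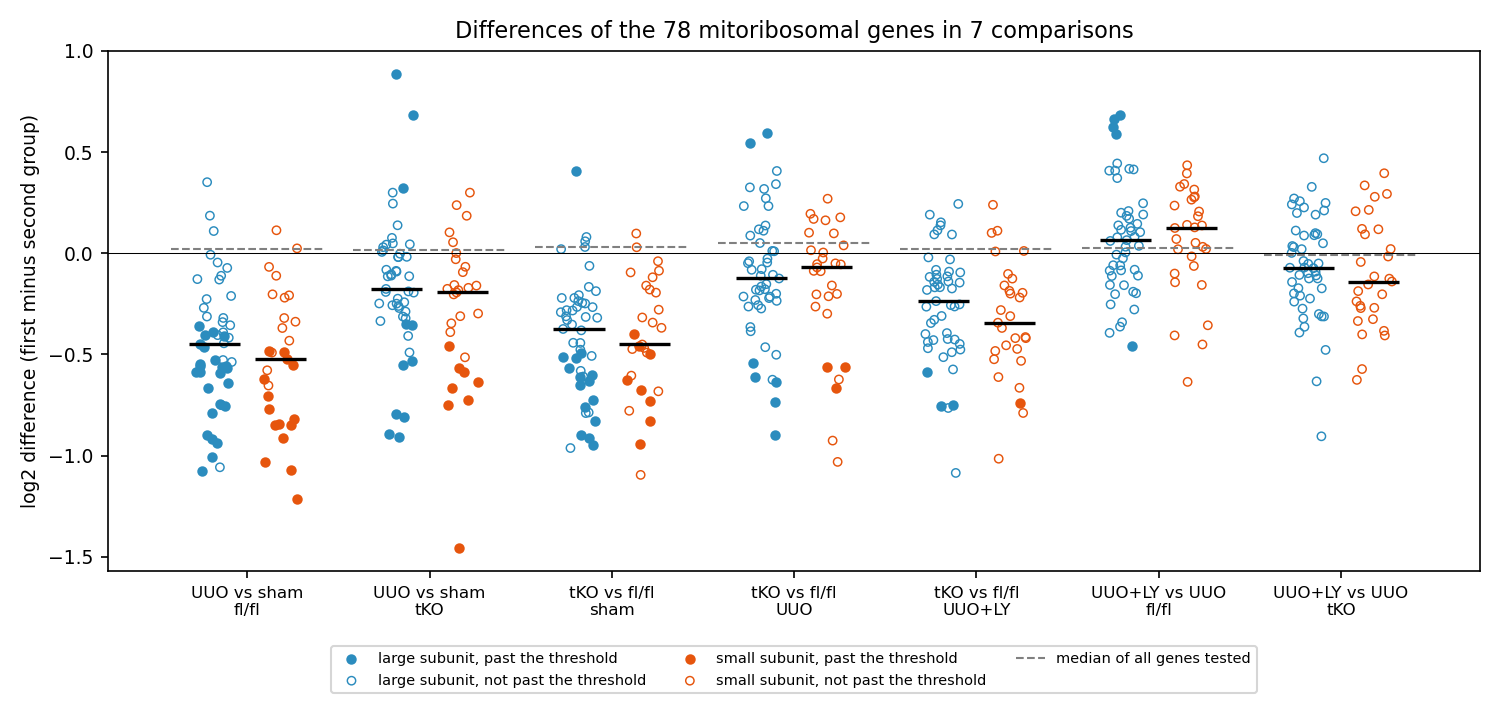
Each point is 1 of the 49 large or 29 small subunit genes, drawn at its log2 difference (first minus second group) in each of 7 comparisons, filled where the edgeR adjusted p was below 0.05. Black bars are subunit medians and dashed lines the median of all 19256 genes tested; in fl/fl kidneys after UUO the subunit medians stood at -0.45 and -0.52 under TMM scaling, whereas scaling by library totals gave 0.25 over the 78 genes and 0.76 over all genes.

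In sham-operated kidneys the RNAs were on balance less abundant in tKO. Against fl/fl sham kidneys, 22 of the 78 genes were lower and 1 was higher in tKO sham kidneys, where 12.3% of all genes tested passed, 6.57% as lower and 5.76% as higher. The lower ones were 14 of 49 large and 8 of 29 small subunit genes, and the median was -0.39, against 0.03 over all genes. This was not particular to the 78 genes. Of the cytosolic ribosomal protein genes 20 of 78 were lower (median -0.47), and of the nuclear respiratory chain genes 41 of 85 (-0.51). In 47 of the 78 all tKO libraries lay below all fl/fl libraries and in 0 above, against 16.2% and 14.1% of all genes. Without tKO sham replicate 1 these counts were 61 and 1, against 24.7% and 23.98% of all genes, and the median was -0.51. The count rested on single libraries: 39 genes were lower without tKO sham replicate 1, 1 without tKO sham replicate 2 and 9 without tKO sham replicate 3, while 13, 5 and 5 were lower without fl/fl sham replicate 1, 2 or 3. A fit of the sham kidneys alone called 0, with a median of -0.38. The share of all genes past the threshold was not worked out for these refits. Their counts show only how far the calls depend on the libraries used. Mitochondrially encoded genes took 33.7% to 69.5% of counts in tKO sham, against 30.8% to 35.5% in fl/fl sham libraries, and summed stromal markers 510 to 812 CPM, against 231 to 346 CPM, and their part in this comparison was not tested.

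Mrpl12 had 148.9, 66.7 and 57.0 CPM in tKO sham kidneys, against 159.4, 177.1 and 190.7 CPM in fl/fl sham kidneys (log2 difference -0.95 ± 0.27, edgeR adjusted p = 0.0356). The first tKO library, the one with Pcmt1 at the fl/fl level, stood close to the fl/fl libraries and the other 2 far below them. The same order held for Mrps24, a conserved small subunit protein, with 40.2, 22.1 and 16.7 CPM in tKO sham kidneys, against 50.9, 53.5 and 48.9 CPM in fl/fl sham kidneys (-0.94 ± 0.23, edgeR adjusted p = 0.0204). Mrpl34, the most abundant of the 78 per length, had 49.2, 32.1 and 20.3 CPM in tKO sham kidneys, against 62.8, 60.1 and 69.8 CPM in fl/fl sham kidneys (-0.91 ± 0.24, edgeR adjusted p = 0.0268). Mrpl44, a mitochondria-specific large subunit protein, had 31.7, 18.2 and 14.95 CPM in tKO sham kidneys, against 39.4, 40.5 and 41.99 CPM in fl/fl sham kidneys (-0.90 ± 0.22, edgeR adjusted p = 0.0184). Each of these 4 calls was lost without tKO sham replicate 2 or 3 and without fl/fl sham replicate 2. Those of Mrpl12 and Mrpl34 were also lost without fl/fl sham replicate 1 or 3, and that of Mrpl44 without fl/fl sham replicate 3. Without tKO sham replicate 1 the differences were -1.51 for Mrpl12, -1.39 for Mrps24, -1.29 for Mrpl34 and -1.29 for Mrpl44. Mrpl24, a conserved protein of the large subunit, was the 1 gene that was higher, with 147.5, 200.4 and 216.9 CPM in tKO sham kidneys, against 140.5, 150.4 and 135.5 CPM in fl/fl sham kidneys. Its libraries overlapped, and the difference of 0.40 ± 0.13 (edgeR adjusted p = 0.0469) was not called without any one of 5 of the 6 libraries, all but tKO sham replicate 1.

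The genotypes were also compared after UUO. In tKO UUO kidneys 8 of the 78 were lower and 2 higher than in fl/fl UUO kidneys, a share near or below that of all genes tested, of which 17.9% passed, 9.65% as lower and 8.27% as higher. The lower ones were 5 large and 3 small subunit genes, and the median was -0.10. All tKO libraries lay below all fl/fl libraries in 18 of the 78 genes and above them in 5, against 20.6% and 21.8% of all genes. Mrpl12 had 53.6, 50.7 and 43.1 CPM in tKO UUO kidneys, against 91.3, 75.4 and 108.3 CPM in fl/fl UUO kidneys (-0.90 ± 0.27, edgeR adjusted p = 0.0329). Mrpl44 had 22.8, 18.6 and 19.4 CPM in tKO UUO kidneys, against 34.2, 29.6 and 37.4 CPM in fl/fl UUO kidneys (-0.73 ± 0.21, edgeR adjusted p = 0.0287). The differences of Mrps18b (-0.66 ± 0.15) and Mrpl15 (-0.63 ± 0.19), both conserved in bacteria, also passed. The higher ones were Mrpl23, by 0.59 ± 0.11, and Mrpl52, by 0.55 ± 0.16, both of which had also risen after UUO in tKO kidneys, a comparison that uses the same tKO UUO libraries. The number of lower genes was 2 without fl/fl UUO replicate 1 or without tKO UUO replicate 3, and 4 without fl/fl UUO replicate 3 or without tKO UUO replicate 2. The number of higher genes was 1 without replicate 1 or 2 of either group. The calls of Mrpl44 and Mrpl15 were lost without fl/fl UUO replicate 1 or tKO UUO replicate 2 or 3, the first also without fl/fl UUO replicate 3 and the other also without tKO UUO replicate 1. That of Mrpl12 was lost without any library but fl/fl UUO replicate 2, that of Mrps18b without fl/fl UUO replicate 1, and that of Mrpl52 without replicate 1 or 2 of either group.

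**Figure D3:**
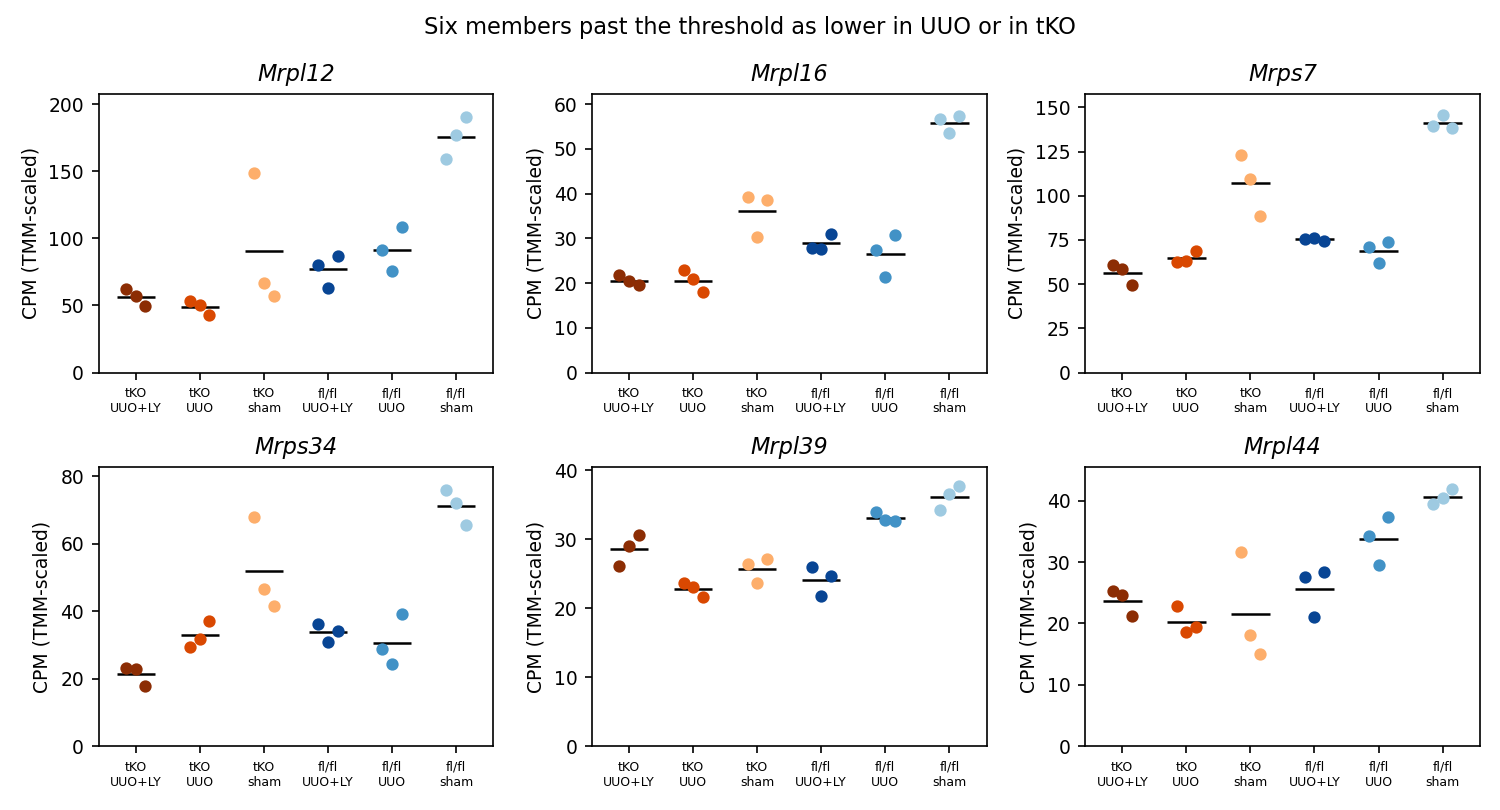
CPM (TMM-scaled) of Mrpl12, Mrpl16, Mrps7, Mrps34, Mrpl39 and Mrpl44 in each library of the 6 groups, with a bar at the mean of 3 libraries. Mrpl12 stood at 159.4 to 190.7 CPM in fl/fl sham kidneys and lower in every other group, with 1 tKO sham library at 148.9 CPM.

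The sham and the UUO comparison of genotypes share no libraries, and 6 genes were lower in tKO in both: Mrpl9, Mrpl12, Mrpl39, Mrpl44, Mrps22 and Mrps31. They are 27.3% of the 22 genes in sham and 75% of the 8 genes in UUO kidneys. Over all genes tested, those lower in both made up 46.5% of the genes lower in sham and 31.7% of those lower in UUO kidneys. The sham calls behind this overlap numbered 1 without tKO sham replicate 2 and 0 in a fit of the sham groups alone. Mrpl9 is the counterpart of a conserved bacterial large subunit protein, and Mrpl39, Mrps22 and Mrps31 are mitochondria-specific. The promoters of 5 of them are shown because the genes were lower in both comparisons. The windows hold the 250 bases before the RefSeq start of each gene, read on its own strand from the table for GRCm38.p6: Mrpl9 chr3:94443086-94443335 (+ strand), Mrpl12 chr11:120484387-120484636 (+ strand), Mrpl39 chr16:84735245-84735494 (- strand), Mrpl44 chr1:79775768-79776017 (+ strand) and Mrps22 chr9:98601680-98601929 (- strand). Capitals mark a match, on either strand, to the NRF1 motif (GCGCA, any base, GCGC) or to the ETS core CCGGAAG.
Mrpl9: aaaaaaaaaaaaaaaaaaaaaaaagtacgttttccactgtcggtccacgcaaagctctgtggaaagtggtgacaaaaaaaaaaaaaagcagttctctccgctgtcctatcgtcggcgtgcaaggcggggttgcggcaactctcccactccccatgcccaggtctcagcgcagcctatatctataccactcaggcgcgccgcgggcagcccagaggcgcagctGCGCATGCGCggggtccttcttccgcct
Mrpl12: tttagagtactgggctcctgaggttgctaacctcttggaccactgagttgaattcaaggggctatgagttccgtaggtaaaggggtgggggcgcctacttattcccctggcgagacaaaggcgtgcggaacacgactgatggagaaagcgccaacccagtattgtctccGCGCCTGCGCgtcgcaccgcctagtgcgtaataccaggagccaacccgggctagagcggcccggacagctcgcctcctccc
Mrpl39: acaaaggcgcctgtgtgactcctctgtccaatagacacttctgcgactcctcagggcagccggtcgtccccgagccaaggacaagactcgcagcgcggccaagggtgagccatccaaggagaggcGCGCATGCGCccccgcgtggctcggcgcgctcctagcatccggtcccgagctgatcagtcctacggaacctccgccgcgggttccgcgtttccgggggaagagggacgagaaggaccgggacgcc
Mrpl44: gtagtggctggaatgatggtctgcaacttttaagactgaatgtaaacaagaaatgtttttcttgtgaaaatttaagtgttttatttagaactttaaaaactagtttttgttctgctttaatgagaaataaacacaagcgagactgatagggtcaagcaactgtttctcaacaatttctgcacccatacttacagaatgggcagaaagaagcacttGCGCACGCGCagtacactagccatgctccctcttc
Mrps22: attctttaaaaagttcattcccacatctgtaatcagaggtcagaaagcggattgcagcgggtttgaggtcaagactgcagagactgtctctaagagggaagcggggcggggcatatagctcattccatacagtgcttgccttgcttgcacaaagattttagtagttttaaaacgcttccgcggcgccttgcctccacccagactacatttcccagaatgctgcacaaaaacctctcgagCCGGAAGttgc

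An NRF1 match stood in 4 of the 6 promoters, beginning 28 bases before the start in Mrpl9, 81 in Mrpl12, 125 in Mrpl39 and 35 in Mrpl44. An ETS match stood 11 bases before the start in Mrps22, and the Mrps31 window, searched in the same way, held neither motif. Nuclear respiratory factor 1 (NRF1) and the ETS factor GABPA are known regulators of nuclear genes for mitochondrial proteins. Windows of 250 bases before to 50 after the start were found for 69 of the 78 genes. The NRF1 motif was in 13 of these 69 (18.8%), against 6.60% of 17492 protein-coding promoters of the same length, the ETS core in 25 (36.2%), against 11.9%, and the YY1 motif (AA, any base, ATGGC, any base, GC) in 14 (20.3%), against 2.40%. By subunit, the NRF1 motif was in 10 of 43 large and 3 of 26 small subunit promoters, and the ETS core in 14 and 11. A match is a description of the letters and not of a bound site.

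Features of position were also read, and each held for a part of the genes. In the GENCODE M21 annotation of GRCm38, 18 of the 78 (23.1%) had a protein-coding neighbour that starts within 1000 bases on the other strand and runs the other way, against 6.79% of 21938 protein-coding genes. Among them, Mrps12 faced Sars2, the mitochondrial seryl-tRNA synthetase gene, at 172 bases, Mrps27 faced Ptcd2 at 81 bases, and Mrpl54 faced Apba3 at 26 bases. The 78 genes lay on 17 chromosomes. Exons of 33 overlapped those of another gene, in 28 cases on the opposite strand: Mrpl12 (chromosome 11, 120484613 to 120489065), Mrps7 (chromosome 11, 115603925 to 115608036), Mrps34 (chromosome 17, 24895116 to 24897502), Mrpl14 and Mrpl44 among them, and Mrpl46 overlapped Mrps11. The strand setting of the counting is not given in the sources used here, so reads of such pairs may be shared. Exon overlaps were not counted over all protein-coding genes, so these numbers have no background beside them. Mrpl16 (chromosome 19, 11770391 to 11774960), Mrpl23, Mrpl39, Mrpl52 and Mrps23 overlapped no other exon.

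LY2109761 after UUO was compared with DMSO within each genotype, and the shares of the 78 genes past the threshold were near those of all genes. In fl/fl kidneys 4 of the 78 were higher and 1 lower in UUO with LY2109761 than in UUO with DMSO, against 5.15% of all genes tested, 2.52% as higher and 2.62% as lower. All 5 belonged to the large subunit, and a fit of only the groups compared called 0 of the 78. In tKO kidneys 0 of the 78 passed the edgeR threshold, against 0.171% of all genes (0.0831% as higher, 0.0883% as lower). At an unadjusted p below 0.05 there were 12 of the 78, against 3314 of 19256 genes tested. DESeq2 called 3 of the 78, all lower, against 898 of all genes in either direction. The test of the difference between both effects called 9 of the 78, 7 with a lower and 2 with a higher effect in tKO kidneys, against 13.8% of all genes, 6.80% and 7.05% in the 2 directions. The share among the 78 was thus close to that of all genes. These effects use the same libraries as the genotype comparisons after UUO. In fl/fl kidneys all LY2109761 libraries lay above all DMSO libraries in 15 of the 78 genes and below them in 7. Among all genes the shares were 16.3% and 15.4%. In tKO kidneys the counts were 10 and 16, against 12.8% and 12.7% of all genes.

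Mrpl52 had 34.5, 32.4 and 29.8 CPM in tKO UUO with LY2109761, against 52.8, 55.1 and 42.1 CPM in tKO UUO with DMSO. In fl/fl kidneys it had 56.1, 58.1 and 48.7 CPM with LY2109761, against 32.5, 30.99 and 39.3 CPM with DMSO. The effects were -0.63 ± 0.16 (edgeR adjusted p = 0.0910) in tKO and 0.66 ± 0.16 (edgeR adjusted p = 0.0309) in fl/fl kidneys, and they differed by -1.30 ± 0.22 (edgeR adjusted p = 0.00316). The tKO effect did not pass. Libraries with and without LY2109761 did not overlap in either genotype. Among all genes, 12.7% were lower without overlap in tKO and 16.3% higher without overlap in fl/fl kidneys.

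Mrpl54, another mitochondria-specific protein, had 42.3, 31.9 and 33.7 CPM in tKO UUO with LY2109761, against 44.3, 55.4 and 50.6 CPM in tKO UUO with DMSO. The fl/fl kidneys had 59.2, 71.6 and 51.0 CPM with LY2109761, against 37.4, 31.3 and 44.7 CPM with DMSO. Its effects of -0.48 ± 0.16 in tKO and 0.68 ± 0.16 in fl/fl kidneys differed by -1.16 ± 0.23 (edgeR adjusted p = 0.00585). Again the libraries with and without LY2109761 did not overlap in either genotype, in the same directions and so with the same shares of all genes as for Mrpl52.

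Mrpl23 had 20.03, 19.9 and 20.3 CPM in tKO UUO with LY2109761, against 25.8, 26.5 and 26.7 CPM in tKO UUO with DMSO. The fl/fl kidneys had 28.5, 29.2 and 23.0 CPM with LY2109761, against 18.1, 17.3 and 16.8 CPM with DMSO. The effects of -0.39 ± 0.11 and 0.63 ± 0.11 differed by -1.02 ± 0.16 (edgeR adjusted p = 0.00188), and no libraries overlapped. For Mrpl33 the effects were -0.32 ± 0.13 in tKO and 0.59 ± 0.14 in fl/fl kidneys, which differed by -0.91 ± 0.19 (edgeR adjusted p = 0.00767).

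Mrpl39 and the small subunit gene Mrps31 ran the other way. Mrpl39 had 26.1, 29.1 and 30.6 CPM in tKO UUO with LY2109761, against 23.6, 23.1 and 21.6 CPM in tKO UUO with DMSO. The fl/fl kidneys had 26.0, 21.7 and 24.7 CPM with LY2109761, against 33.9, 32.8 and 32.6 CPM with DMSO. Its effects of 0.33 ± 0.11 in tKO and -0.46 ± 0.11 in fl/fl kidneys differed by 0.78 ± 0.15 (edgeR adjusted p = 0.00585). The effects on Mrps31 were 0.40 ± 0.14 and -0.41 ± 0.14, and they differed by 0.80 ± 0.20 (edgeR adjusted p = 0.0175). Without fl/fl UUO with LY2109761 replicate 3 the call of Mrps31 was lost.

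The calls for LY2109761 rested on single libraries. The 4 genes that were higher there were 0 without fl/fl UUO replicate 1, or without replicate 1 or 3 of fl/fl UUO with LY2109761, and 1 without fl/fl UUO replicate 2, and the lower one was lost without any of these 4 libraries. In the test of the difference, the 7 lower effects became 4 without replicate 1 or 3 of fl/fl UUO with LY2109761, replicate 1 or 2 of fl/fl UUO, replicate 2 of tKO UUO or replicate 3 of tKO UUO with LY2109761. The 2 higher effects became 1 without fl/fl UUO with LY2109761 replicate 3. Under LY2109761 after UUO, 4 of the 78 genes were lower and 0 higher in tKO than in fl/fl kidneys, against 2.98% of all genes, 2.09% as lower and 0.888% as higher. The median was -0.26, and 31 of the 78 had an unadjusted p below 0.05, against 3767 of 19256 genes tested. All tKO libraries lay below all fl/fl libraries in 39 of the 78 genes and above them in 3, against 14.2% and 13.02% of all genes. The 4 were Mrpl54 (-0.75 ± 0.16), Mrpl52 (-0.75 ± 0.16), Mrps28 (-0.74 ± 0.18) and Mrpl33 (-0.59 ± 0.14). None of the 4 passed without replicate 1 or 3 of fl/fl UUO with LY2109761, or without replicate 2 or 3 of tKO UUO with LY2109761, and Mrpl33 and Mrps28 were also lost without replicate 4 of fl/fl UUO with LY2109761.

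**Figure D4:**
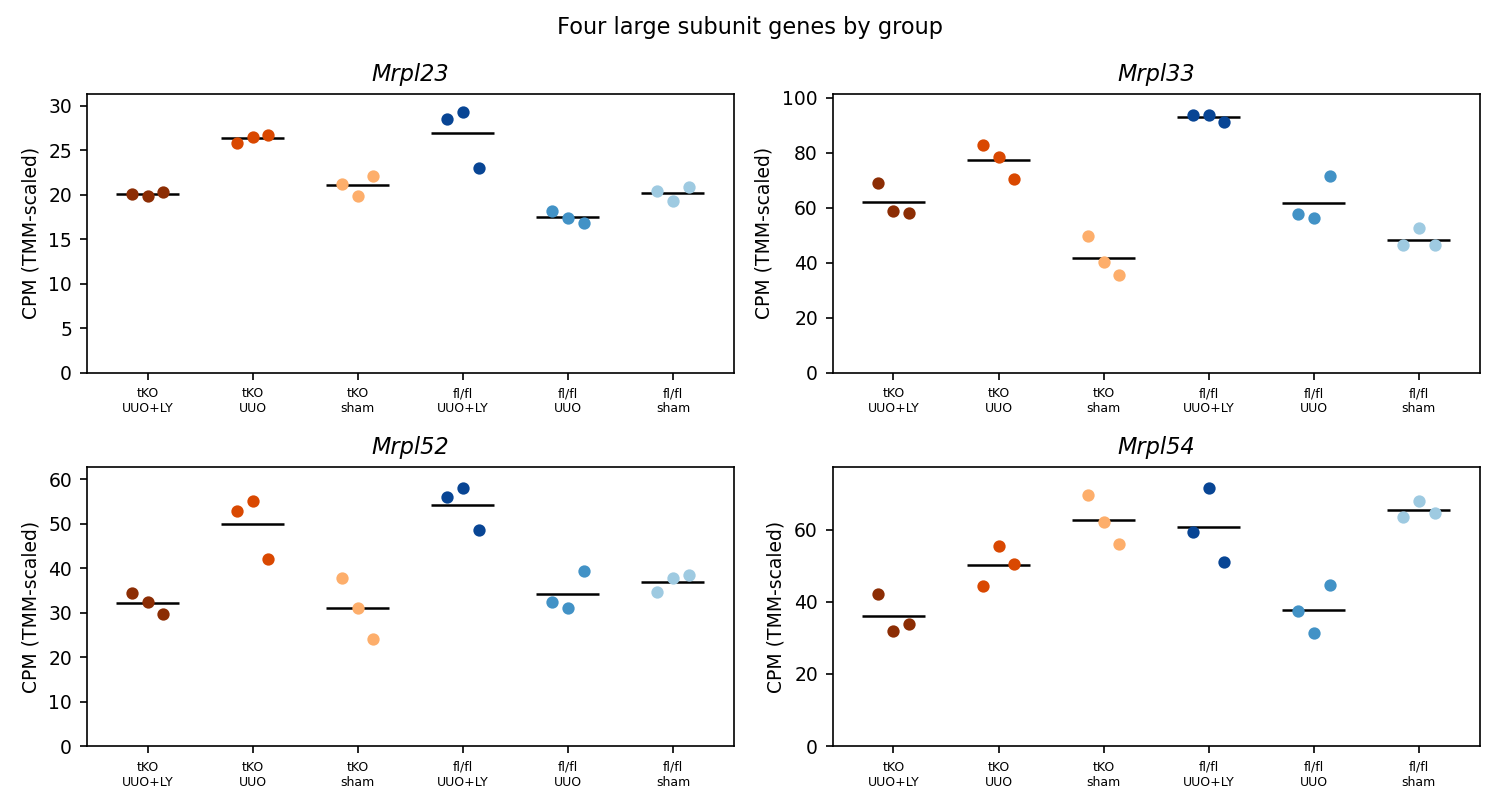
CPM (TMM-scaled) of the large subunit genes Mrpl23, Mrpl33, Mrpl52 and Mrpl54 in each library of the 6 groups, with a bar at the mean of 3 libraries. With LY2109761 after UUO, Mrpl52 stood at 29.8 to 34.5 CPM in tKO and 48.7 to 58.1 CPM in fl/fl kidneys, and with DMSO at 42.1 to 55.1 CPM in tKO and 30.99 to 39.3 CPM in fl/fl kidneys.

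Across the 7 comparisons of groups, 58 of the 78 genes passed the threshold at least once and 20 never did, that is 74.4% against 60.7% of all genes tested. Mrpl12 and Mrpl52 each passed in 4. The 20 included Mrps12, Mrps18a, Mrps18c and Mrps30 of the genes chosen for their role.

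Set beside the gene groups most like them, the 78 genes had a median after UUO that lay between those of the cytosolic ribosome and the respiratory chain. Among fl/fl kidneys, 81 of 85 tested nuclear genes for respiratory chain subunits fell after UUO (median log2 difference -1.30), as did 12 of 13 mitochondrially encoded protein genes (-3.09). Of 78 tested cytosolic ribosomal protein genes 14 fell and 2 rose (-0.16), where 18.7% of all genes tested fell and 20.9% rose. In tKO UUO kidneys 68 of 85 respiratory chain genes fell (-0.94) and 46 of 78 cytosolic ribosomal protein genes rose (0.55). Over all genes tested, 19.4% fell and 21.6% rose there. In the test of LY2109761 effects between genotypes, 39 of 78 cytosolic ribosomal protein genes had a lower effect in tKO kidneys (-0.84), against 6.80% of all genes. The median over the 78 mitochondrial ones was -0.17. With LY2109761 after UUO, 18 of 78 cytosolic ribosomal protein genes (-0.47) and 23 of 85 respiratory chain genes (-0.47) were lower in tKO than in fl/fl kidneys. The median of the 78 mitochondrial ones was -0.26 there, and 2.09% of all genes tested passed as lower. These counts come from the same fit, and the differences between gene groups were not tested.

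**Figure D5:**
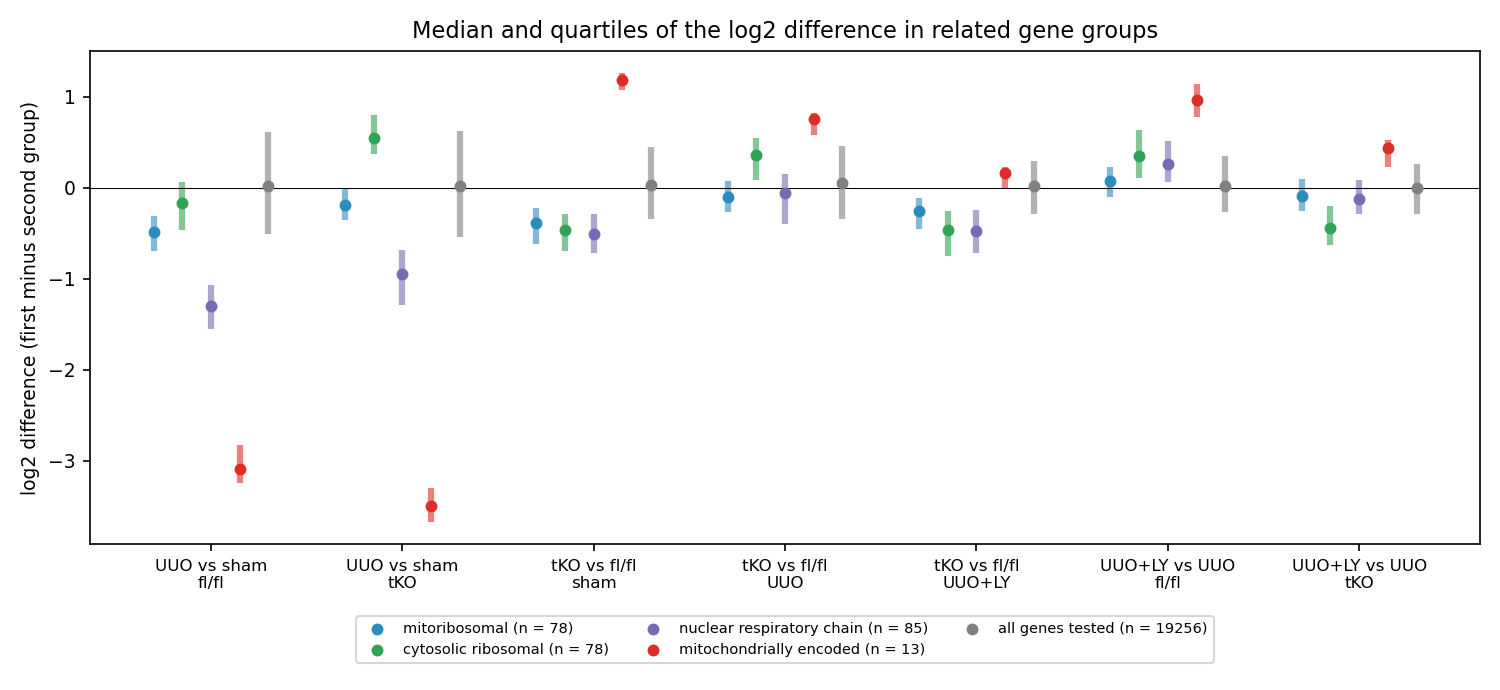
Median (point) and quartiles (bar) of the log2 difference, first minus second group, in 7 comparisons for 5 groups of genes. After UUO in fl/fl kidneys the medians were -0.49 for the mitochondrial ribosomal, -0.16 for the cytosolic ribosomal, -1.30 for the nuclear respiratory chain and -3.09 for the mitochondrially encoded genes, all under TMM scaling.

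Among the other genes of mitochondrial translation some fell in fl/fl UUO kidneys and none of the 4 lists held a gene that rose, where 18.7% of all genes tested passed as lower. Of 5 mitochondrial ribosomal proteins with other symbols, all 5 fell in fl/fl UUO kidneys, among them Chchd1 (-0.97 ± 0.34), Aurkaip1 (-0.86 ± 0.15) and Gadd45gip1 (-0.79 ± 0.17). Of 27 genes for assembly and rRNA modification 8 fell and 0 rose, led by the GTPase gene Mtg2 (-1.08 ± 0.13), Malsu1 (-0.99 ± 0.17) and the RNA-stabilizing factor Slirp (-0.89 ± 0.20). Of 16 translation factor genes 7 fell, among them Mtres1 (-0.95 ± 0.14), the elongation factor gene Tufm (-0.95 ± 0.30) and Gfm2 (-0.84 ± 0.12), which acts in ribosome recycling. Of 20 genes for mitochondrial aminoacyl-tRNA synthesis 5 fell, led by Gatb (-1.23 ± 0.17), Fars2 (-0.80 ± 0.13) and Hars2 (-0.75 ± 0.12). In tKO UUO kidneys 2 of 5, 5 of 27, 10 of 16 and 11 of 20 fell in these lists, and 0 rose. Among all genes tested, 19.4% passed there as lower and 21.6% as higher.

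Regulators did not move one way. Of 19 genes for mitochondrial DNA transcription and biogenesis, 5 fell and 2 rose in fl/fl UUO kidneys, against 18.7% and 20.9% of all genes tested. The coactivator genes Ppargc1b (-1.22 ± 0.26) and Ppargc1a (-0.88 ± 0.20) fell, as did Polg2 (-0.62 ± 0.17) and the mitochondrial RNA polymerase gene Polrmt (-0.56 ± 0.14), while Myc (2.74 ± 0.35) and Pprc1 (1.14 ± 0.21) rose. Nrf1 differed by 0.19 ± 0.38 and Gabpa by 0.04 ± 0.24, with no call, and Tfam by -0.35 ± 0.14 (edgeR adjusted p = 0.0509). In tKO UUO kidneys 6 of the 19 fell and 2 rose, against 19.4% and 21.6% of all genes tested.

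Cell type markers changed alongside. Of 15 proximal tubule markers 13 fell and 1 rose in fl/fl UUO kidneys, and their summed level was 7279 to 11839 CPM in UUO, against 38119 to 51840 CPM in sham kidneys. Of 11 distal nephron markers 10 fell, 9 of 12 leukocyte markers and 6 of 10 stromal markers rose, and of 7 endothelial markers 1 rose and 1 fell. Over all genes tested, 18.7% fell and 20.9% rose. The summed leukocyte level was 886 to 1065 CPM in fl/fl UUO kidneys, against 180 to 210 CPM in fl/fl sham kidneys. Between genotypes, 6 of 10 stromal markers were higher and 4 of 15 proximal tubule markers lower in tKO than in fl/fl sham kidneys. Over all genes tested, 5.76% were higher and 6.57% lower. In tKO UUO kidneys 8 of 15 proximal tubule markers were lower and 3 of 12 leukocyte and 3 of 10 stromal markers higher than in fl/fl UUO kidneys. The shares of all genes tested were 9.65% as lower and 8.27% as higher. Pvalb, a distal tubule marker, was at 0 in all libraries of fl/fl UUO and of tKO UUO with LY2109761, and no other marker was at 0 throughout a group. The part of these markers in the differences of the 78 genes was not tested.

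Both smaller tables of the series list only genes that the authors had chosen as changed on the same libraries, so they allow a description and no test. Of the 379 genes listed for HK-2, a human proximal tubule cell line, MRPL53 was the single gene of this family. It had 1.23, 2.31 and 2.13 FPKM in PCMT1 KO cells, against 3.92, 4.89 and 3.50 FPKM in WT cells. Of the 410 genes listed for whole kidneys, Mrps23 was the single one, with 25.7, 26.8, 27.2 and 30.95 FPKM in Pcmt1 KO kidneys, against 6.99, 16.7, 16.2 and 27.1 FPKM in WT kidneys. The WT values spanned a wide range and the highest of them lay inside the KO range.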

How the data were processed

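Gene counts of 18 kidney libraries (6 groups of 3) were analysed as deposited. The authors' counts are whole numbers with no scaling, as the values show, and the authors' deposited FPKM stand beside them in the table. Per the submitters' processing notes, the tools fastp, HISAT2 and StringTie and the builds GRCm38, mm10, GRCh38 and hg38 were named. The strand setting of the counting is not given in the sources used here. Positions in the deposited obstruction table matched GENCODE M21 for 1396 of 51884 shared IDs, so positions were read from GENCODE M21 (GRCm38) by gene ID.

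All genes were fitted at once by the quasi-likelihood method of edgeR (version 4.0.16, under R 4.3.3) after its filterByExpr filter and TMM scaling, leaving 12 residual degrees of freedom. Benjamini-Hochberg adjustment ran over all 19256 genes, with 0.05 as the threshold. The 7 comparisons of groups and 2 differences between effects were contrasts of 1 model, and a standard error is the log2 difference divided by the square root of its F statistic. The steps were tested on simulated counts. Alternatives were RLE factors, column totals, leaving out mitochondrially encoded genes, no filter, only the groups compared, a replicate block, DESeq2 1.42.0 and each library left out. Except for DESeq2, the share of all genes past the threshold was not worked out for them. Genes named with values were the largest changes past the threshold (6 in each direction for UUO against sham, 4 otherwise), the 4 highest and 2 lowest of each subunit, and a few fixed by their role. The 78 genes and all gene lists were chosen with earlier results of these data known. FPKM of the HK-2 and whole-kidney tables were used as deposited by the authors. Depth sets the precision: the smallest count used, 24, carries the largest counting error.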

Additional observations from a re-analysis of the deposited data

Results flagged for a closer look

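For 9 genes the effect of LY2109761 after UUO differed between tKO and fl/fl kidneys by edgeR's test of the difference, given as the tKO minus the fl/fl effect on the log2 scale. The value was -1.30 for Mrpl52, -1.16 for Mrpl54, -1.02 for Mrpl23, -0.91 for Mrpl33, -0.81 for Mrpl57, -0.58 for Mrpl24, -0.58 for Mrpl51, 0.78 for Mrpl39 and 0.80 for Mrps31. Among all genes tested 13.8% passed this test.

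Of the 4 whole kidneys of Pcmt1 KO mice, 1 stood apart in the counts of Mrps23, with 1108 against 990 to 997 in the other 3, a gap of 0.941 of the range where 0.829 is the critical value. The FPKM of the same libraries gave 0.719, under that value. About 1 in 20 such groups passes this limit by chance.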

How the results depend on the processing

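Counts here are genes past the threshold among the 78, with the reported count after "against". Scaled by column totals and not by TMM, 0 genes came out lower in each comparison, and UUO gave 10 higher genes against 0 in fl/fl and 51 against 3 in tKO kidneys. The medians after UUO turned to 0.25 and 0.85 there, while the medians of all genes moved to 0.76 and 1.06. Scaling shifts all genes of a library alike, so the gap between the 78 genes and all genes is no separate check. The differences of Mrpl12 (0.0058), Mrpl16 (0.25), Mrpl46 (0.14) and Mrps17 (0.39) after UUO in tKO kidneys turned positive as well. In the genotype comparisons and under LY2109761, column totals gave 0 calls in either direction. With no filter the lower genes were 10 against 16 for UUO in tKO, 14 against 22 in sham, 3 against 8 between genotypes in UUO, 0 against 4 with LY2109761 and 4 against 7 for the difference of LY2109761 effects. The higher ones were 1 against 2 in UUO, 1 against 4 for LY2109761 in fl/fl and 1 against 2 for the difference. With only the groups compared, lower genes were 7 against 16 for UUO in tKO, 0 against 22 in sham and 2 against 4 with LY2109761, and higher genes 2 against 3, 0 against 1 in sham, 1 against 2 in UUO and 0 against 4 for LY2109761 in fl/fl. DESeq2 called 16 against 4 lower genes with LY2109761, 3 against 0 for LY2109761 in tKO, 8 against 4 higher for LY2109761 in fl/fl, 3 against 2 for the difference, 1 against 0 for UUO in fl/fl and 1 against 0 for the difference of UUO effects. Among all 19256 genes, in either direction, DESeq2 called 1471 with LY2109761, 898 for LY2109761 in tKO and 2072 for LY2109761 in fl/fl. It called 3551 for the difference, 8141 for UUO in fl/fl and 412 for the difference of UUO effects. RLE factors and the counts without mitochondrially encoded genes each gave 1 against 0 higher for UUO in fl/fl. Same-numbered libraries did not deviate together (19 pairs, correlations -0.134 to 0.120, 2 pairs matching best). No pairing by number was seen, though so few libraries a group cannot exclude it. With the replicate as a block, 40 genes were lower for UUO in fl/fl, 14 in tKO, 19 in sham, 8 in UUO and 0 with LY2109761, and 3 had a higher difference of LY2109761 effects.

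With each library left out in turn, lower genes ranged from 27 to 44 for UUO in fl/fl, 11 to 17 in tKO, 1 to 39 in sham, 2 to 8 in UUO, 0 to 5 with LY2109761, 0 to 1 for LY2109761 in fl/fl and 4 to 8 for the difference. Higher genes ranged from 0 to 1 in fl/fl UUO (1 without fl/fl UUO replicate 2), 2 to 6 in tKO UUO (6 without tKO sham replicate 1), 0 to 1 in sham, 1 to 2 in UUO, 0 to 4 for LY2109761 in fl/fl, 1 to 2 for the difference of LY2109761 effects and 0 to 3 for that of UUO effects (3 without tKO sham replicate 1). Of 41 single-gene calls named, 27 were lost without at least 1 library, 34 under column totals, 18 with only the groups compared, 15 with no filter and 8 with the replicate block. The cause of these changes was not tested beyond what leaving out genes or libraries itself removes.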
